A study of Mus musculus with 6 samples.

Results

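The cells described here are epithelial cells of the fetal mouse gonad, the coelomic and surface epithelial cells, in single cell mRNA data. A cell was counted as a member when it had at least 3 UMIs of *Upk3b*, at least 2 UMIs of *Krt19* and fewer than 5 UMIs of *Dazl*, a germ cell gene that was used to leave out germ cells. A UMI (unique molecular identifier) stands for 1 captured mRNA molecule. Of 68064 barcodes, 39350 were cells with more than 2500 and fewer than 9000 detected genes, under 25% of UMIs from mitochondrial genes and under 20% from *Hbb* genes. Of these cells, 610 were members. The study asked what the TGF-beta family ligands AMH and activin B do in the fetal testis. It compared, at E15.5 (embryonic day), wild type testes (control XY), testes of *Amh*-/-; *Inhbb*-/- double knockout embryos (dKO XY) and wild type ovaries (control XX), with 2 libraries each. The pair of gonads of an animal was pooled and dissociated, and the cell suspensions were stored frozen until genotyping and thawed for 10x Genomics library construction. The null alleles were present in every cell of the dKO XY gonad, so that an effect within the epithelium and an effect of its neighbours cannot be told apart.

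The coelomic epithelium is the sheet of cells that covers the early gonad. Cells that leave this sheet contribute to the supporting and interstitial lineages of the gonad, and what remains becomes the mesothelium over the testis and the surface epithelium of the ovary. *Upk3b*, which encodes a uroplakin of the cell surface, and *Krt19*, which encodes a keratin of the intermediate filaments, mark mesothelial sheets in many organs. AMH is made by Sertoli cells and signals through the receptor AMHR2, and activin B is a dimer of the subunit that *Inhbb* encodes.

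The members carried the other markers of the label. Levels are given as CPM, the UMIs of a gene summed over the member cells of a library, per 1000000 UMIs of all genes in these cells. *Krt7*, another keratin gene, was at 341 and 286 CPM in control XY, at 218 and 151 in dKO XY and at 187 and 179.8 in control XX, and at 1.74 to 14.8 CPM in all other cells of the 6 libraries. *Tm4sf5*, which encodes a membrane protein of the tetraspanin-like family, was at 248 and 193 CPM in control XY, at 235 and 168 in dKO XY and at 225 and 285 in control XX, against 0.281 to 3.24 CPM in the other cells. *Upk1b*, another uroplakin gene, was at 147 and 123 CPM in control XY, at 57.6 and 46.5 in dKO XY and at 55.8 and 73.2 in control XX, against 0.193 to 2.37 CPM in the other cells. All 3 markers were thus far above the other cells in every library. The rule had not used them, but they belong to the label and were chosen with earlier results of these data known. The 20 genes with the highest level in members relative to all other cells, among genes with at least 50 CPM in the members of every library, were *Upk3b*, *Krt19*, *Tm4sf5*, *Krt7*, *Tmem108*, *Tmem151a*, *Myrf*, *Frem2*, *Ildr2*, *Stk26*, *Krt18*, *Podxl*, *RP23-148L8.3*, *Cdh3*, *Ezr*, *Atf3*, *S100a6*, *Krt8*, *Plxna4* and *Megf6*. *Podxl* encodes the apical sialomucin podocalyxin, *Ezr* the linker ezrin of apical membrane and actin, *Cdh3* P-cadherin and *Frem2* a protein of the epithelial basement membrane. Since the cells were chosen by their counts, these levels are a description and were not tested.

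**Figure D1:**
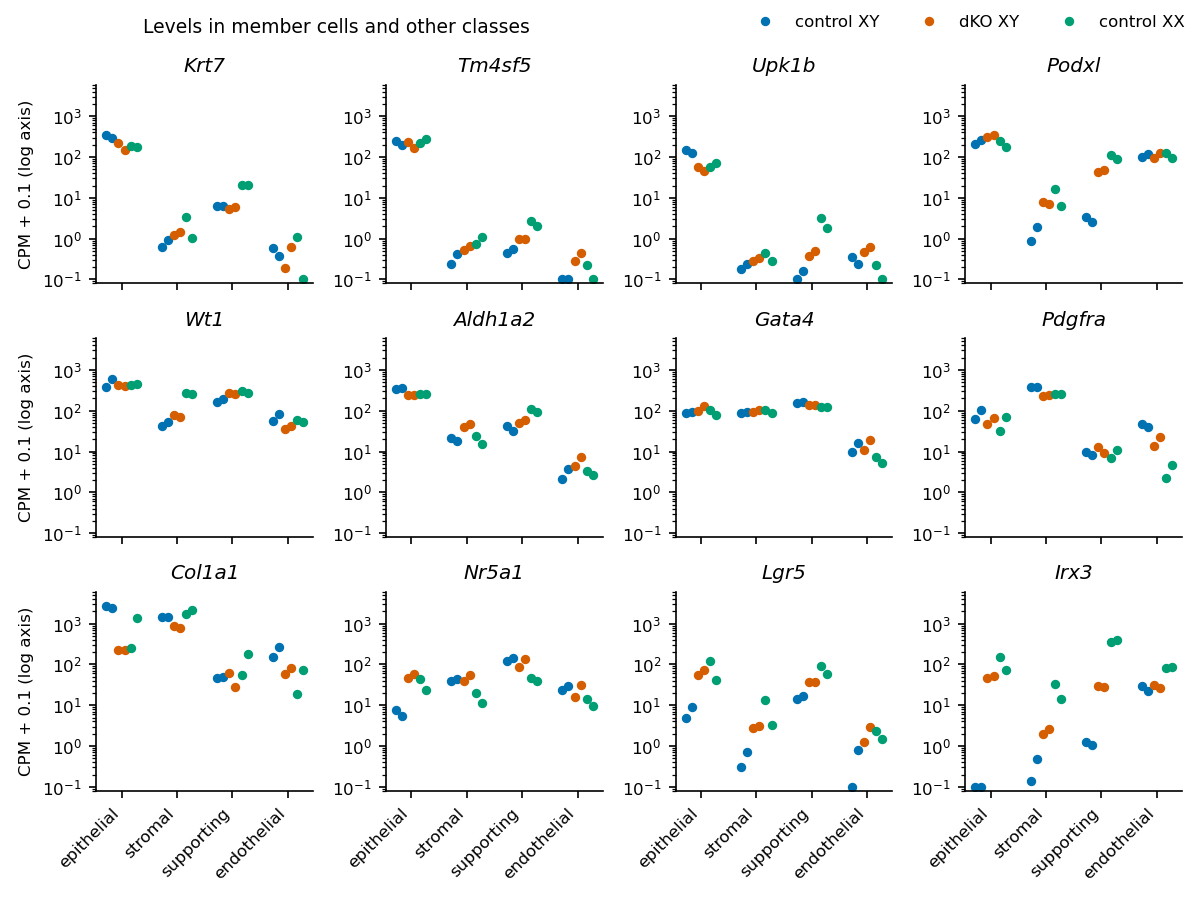
Level of 12 genes in the member epithelial cells and in 3 other classes of cells, in CPM on a log axis to which 0.1 was added, with 1 point per library and colours for control XY, dKO XY and control XX. *Krt7*, *Tm4sf5* and *Upk1b* lie well above the other classes in all 6 libraries, and *Nr5a1*, *Lgr5* and *Irx3* differ between the libraries of the members.

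For comparison, 3 classes were cut from cells without a *Upk3b* UMI. Stromal cells had at least 3 UMIs of *Pdgfra* (18312 cells), supporting lineage cells had at least 5 UMIs of *Kctd14* and fewer than 3 of *Pdgfra* (7475 cells), and endothelial cells had at least 2 UMIs each of *Pecam1* and *Cdh5* (959 cells). *Wt1* is a transcription factor gene of the coelomic epithelium and the supporting lineage. It was at 376 to 603 CPM in members, 168 to 311 CPM in the supporting lineage and 35.5 to 81.9 CPM in endothelial cells. *Gata4*, a transcription factor gene of the somatic gonad, was at 76.6 to 128 CPM in members and at 86.4 to 104 CPM in stromal cells, so that it did not set the epithelium apart. *Aldh1a2*, which encodes an enzyme of retinoic acid synthesis, was at 243 to 354 CPM in members and 15.52 to 46.0 CPM in stromal cells.

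The members numbered 24 and 32 for the control XY libraries, 146 and 123 for dKO XY and 182 and 103 for control XX. Their median depth was 30201 to 41796 UMIs per cell, and their summed UMIs were 1048786 and 1337333 for control XY, 6394248 and 4796307 for dKO XY and 8466087 and 4659477 for control XX. Control XY thus rests on the fewest cells and UMIs. The whole libraries held 152972655 to 296488697 UMIs, and 4 to 25 cell barcodes were shared between any pair of libraries. Near the limits of the rule, 27 members had exactly 3 UMIs of *Upk3b* and 36 cells that met the other criteria had 2. Likewise 34 members had exactly 2 UMIs of *Krt19* and 47 cells were outside with 1. *Dazl* alone left out 22 cells, 20 of them in dKO XY replicate 2.

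The second dKO XY library stood apart from the others. In it, 63 of 123 members (51.2%) had a UMI of *Dazl*, against 14.4% in the other dKO XY library, 10.4% and 6.80% in control XX and 0 of 24 and 0 of 32 in control XY, counts of 0 that allow a share of up to 12.5% and 9.38%. After thinning each cell to 10000 UMIs the *Dazl* shares were 25.9% in this library, 8.70% in the other dKO XY library and 1.66% and 1.01% in control XX. Its members also had the lowest median counts of the marker genes, 12 UMIs of *Upk3b* and 8 of *Krt19*, where the other libraries had 18 to 20 and 14 to 18. Endothelial cells should lack *Upk3b* and were counted here without the cut on that gene, at median depths of 27447 to 43804 UMIs. A UMI of it was in 0% and 0.654% of these cells in control XY. In dKO XY it was in 5.99% and 6.20%, and in control XX in 1.81% and 1.69%. This share was highest in the dKO XY libraries. Of these 990 cells, with at least 2 UMIs each of *Pecam1* and *Cdh5*, 5 met the rule and are part of these shares. Of the 610 members, 187 had at least 3 UMIs of *Pdgfra*, a gene of interstitial cells, and 337 had at least 5 UMIs of *Kctd14*, a gene of the supporting lineage. The latter were 0 and 2 control XY cells, 91 and 90 dKO XY cells and 123 and 31 control XX cells.

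Members made up 0.352% and 0.373% of the cells in the control XY libraries. In dKO XY they were 1.79% and 2.16%, and in control XX 3.41% and 2.15%. The exact 95% binomial intervals were 0.226 to 0.523% and 0.256 to 0.527% in control XY, 1.51 to 2.10% and 1.80 to 2.57% in dKO XY and 2.94 to 3.94% and 1.76 to 2.61% in control XX, which cover counting error only. The group means were 0.363 ± 0.0152% (SD, n = 2), 1.97 ± 0.259% and 2.78 ± 0.891%. Both dKO XY libraries and both control XX libraries were above both control XY libraries, while dKO XY and control XX overlapped. In the study's own clustering, the epithelial class held equal numbers of control XY and dKO XY cells, from similar totals. It held more control XX cells. The rule counted far more dKO XY cells, and fewer control XY and control XX cells, than that class held. Most dKO XY members thus lay outside the study's epithelial class, and which of its classes held them was not examined. The higher share in dKO XY was thus found under the rule used here, and why the counts differ was not tested. When each cell was thinned to 10000 UMIs and cells with fewer were left out, the means were 0.240 ± 0.0168%, 1.35 ± 0.0764% and 1.84 ± 0.377%. There both dKO XY libraries (1.40% and 1.30%) lay below both control XX libraries (2.10% and 1.57%). They also did so with at least 5 UMIs of *Upk3b* and 3 of *Krt19* (1.68% and 1.51% against 3.19% and 1.97%). The cells were chosen by their counts of *Upk3b* and *Krt19*, so the shares are a description, and with 2 libraries against 2 a permutation test cannot go below p = 0.333. The libraries also differed in cell quality. At or over the mitochondrial limit were 24.4% and 28.3% of the dKO XY barcodes, 4.50% and 7.65% of the control XY barcodes and 9.35% and 2.22% of the control XX barcodes. The whole filter kept 51.1% and 45.8% of barcodes for dKO XY, 74.6% and 68.2% for control XY and 53.2% and 60.4% for control XX. The part of cell quality in the shares was not tested.

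**Figure D2:**
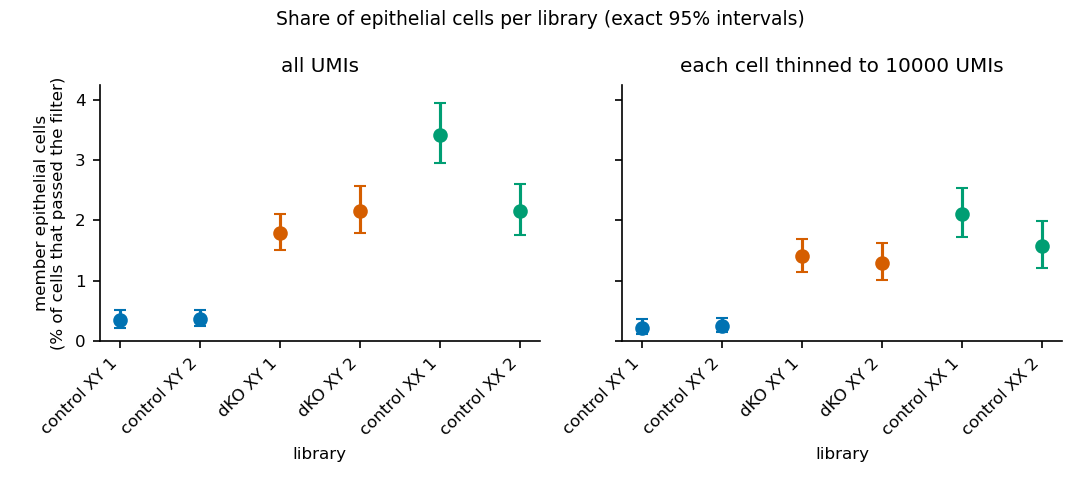
Share of member epithelial cells among all cells that passed the filter, in percent, for each of the 6 libraries, with exact 95% binomial intervals, at full depth and after thinning each cell to 10000 UMIs. Both control XY libraries lie below all 4 other libraries in both panels, and their intervals do not reach those of the others.

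The deleted genes were checked where they are made. In the supporting lineage cells, *Amh* was at 1744 and 1678 CPM in control XY, at 16.2 and 17.1 in dKO XY and at 1.40 and 1.45 in control XX. *Inhbb* was at 139.5 and 171 CPM in control XY, at 34.5 and 41.4 in dKO XY and at 36.0 and 22.9 in control XX in these cells. Both genes were thus far lower in dKO XY than in control XY, but neither was absent. *Inhbb* lay near its control XX level, so its level alone does not show the deletion. Whether the null alleles still give transcripts was not tested. In the members, *Amh* was at 3.81 and 69.5 CPM in control XY, at 8.13 and 8.55 in dKO XY and at 0.591 and 0.215 in control XX, where control XY replicate 2 alone was high, and was not called between dKO XY and control XY (log2 fold change -2.13 ± 0.75, adjusted p = 0.125). *Inhbb* in members was at 3.81 and 8.97 CPM in control XY, at 21.4 and 28.6 in dKO XY and at 35.4 and 12.2 in control XX, lowest in control XY and not called (log2 fold change 1.95 ± 0.59, adjusted p = 0.0836 for dKO XY against control XY). The Y-linked gene *Ddx3y* was at 65.8 to 89.7 CPM in the 4 XY libraries and at 0 in both control XX libraries.

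The members were not uniform. Ward clustering on 10 principal components of 2000 variable genes, without the rule genes and the sex chromosome genes, was cut at 4 groups, numbered by size. Cell group 1 (246 cells) had *Aqp5*, a water channel gene, *Ctgf*, *Krt36* and *Barx1* among its leading genes. Cell group 2 (159 cells) was led by *Gng13*, a gene of early granulosa cells, with *Irx3*, a homeobox gene of the same lineage, and *Kitl*, which encodes the ligand of KIT, among the first 15. Cell group 3 (150 cells) was led by *Col1a1*, which encodes a chain of type I collagen, *Sfrp2*, a secreted WNT inhibitor, *S100a6*, *Ptn* and *Sema3d*. Cell group 4 (55 cells) was led by the Sertoli gene *Cst9*, the Leydig genes *Cyp17a1* and *Cyp11a1* and the germ cell genes *Ddx4* and *Dazl*, and had a median of 16608 UMIs per cell against 37232 to 43472 in the other groups. The median doublet score by Scrublet was 0.0234 in cell group 4, the lowest, 0.0436 and 0.0401 in groups 1 and 2 and 0.0577 in group 3, the highest. The interstitial genes summed to 6933 CPM in group 3 and to 635 to 2349 CPM in the others. The part of doublets and free RNA in these groups was not tested. The clustering describes the cells and tests nothing.

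All 56 control XY members fell in cell group 3. That group also held 15 and 9 of the dKO XY members and 23 and 47 of the control XX members, the 2 control XX libraries being unlike each other (12.6% and 45.6% of their members). Cell group 1 held 102 and 78 dKO XY cells and 37 and 29 control XX cells, cell group 2 held 121 and 27 control XX cells and 7 and 4 dKO XY cells, and cell group 4 was dKO XY (22 and 32 cells) but for 1 cell. Many of the genes that define the groups also differed between the genotypes, so the sizes are not read as a difference in abundance of a cell type. The first component held 10.4% of the variance. *Nr5a1*, which encodes the steroidogenic factor SF1 of the gonadal lineages, was at 5.39 CPM in group 3 and at 49.3, 51.5 and 64.6 CPM in groups 1, 2 and 4. *Col1a1* was at 2496 CPM in group 3 and at 135, 20.8 and 218 CPM in groups 1, 2 and 4. *Upk1b* was at 112 CPM in group 3 and at 45.9 to 57.9 CPM in the others, and *Lhx9*, a LIM homeobox gene of the gonadal epithelium, at 216 CPM against 401 to 419 CPM. *Wt1* differed little, at 387 to 509 CPM over the 4 groups.

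**Figure D3:**
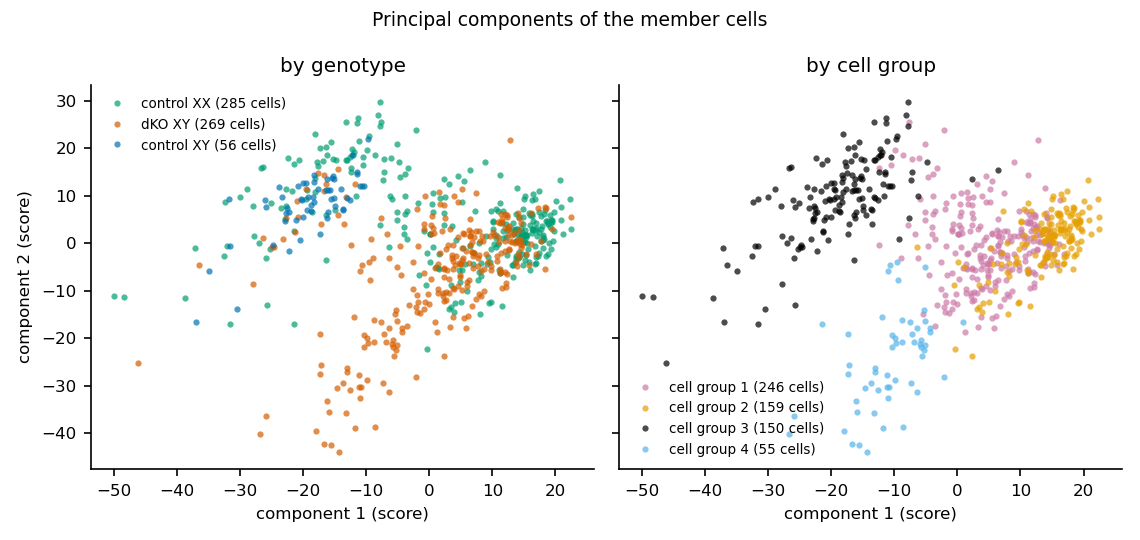
First and second principal component of the 610 member cells, in units of the component score, coloured by genotype in the left panel and by cell group in the right panel. The control XY cells lie on 1 side of the first component, within cell group 3, which also holds cells of the other genotypes.

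dKO XY members had higher levels of the metallothionein gene *Mt1*, of *Nr5a1*, of the AMH receptor gene *Amhr2* and of the keratin genes *Krt8* and *Krt18* than control XY members, and lower levels of the collagen gene *Col1a1* and of *Sostdc1*, *Enpp6* and *Sfrp2*. UMIs were summed over the members of each library and tested across genes with the quasi-likelihood test of edgeR, with libraries as replicates. Differences are log2 fold changes ± standard error, with p-values adjusted by Benjamini and Hochberg over all genes tested, and a gene was called at an adjusted p under 0.05. Of 12479 genes, 412 rose (3.3%) and 482 fell (3.86%) in dKO XY, together 7.16%. The libraries of these groups did not overlap in 54.2% of the genes tested. Without control XY replicate 1, 90 genes were called, without control XY replicate 2, 58, without dKO XY replicate 1, 176, and without dKO XY replicate 2, 133. Where the libraries of the groups did not overlap, leaving 1 out could hardly turn a direction, so a kept direction is not support. A group left with 1 library was assumed to vary like the others, here and wherever a library was left out. Of the 81 genes named here as higher or lower in dKO XY than in control XY over all members, 17, 15, 29 and 26 were still called without these libraries in turn, and all 81 kept their direction. Without control XX replicate 1 or 2, which enter through the shared estimate of the spread, 1681 and 1650 genes were called. With only these 2 groups in the fit 1689 genes were called, and without the filter on low counts 1864.

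Among the cells of group 3 alone, the only cell group with members of all 6 libraries, 7 of 9377 genes were called between dKO XY and control XY (0.0747%) and 400 had an unadjusted p under 0.05. Of the genes called over all members, 706 could be tested there, of which 517 had the same direction and 189 the opposite. The median absolute log2 difference of these 706 genes was 0.34 in cell group 3 and 1.53 over all members. Cell group 3 was formed from the same counts, so its cells are alike by construction, and it held 9 cells of dKO XY replicate 2. This was under the minimum of 10 member cells per library set for the comparisons, and low levels in that library rest on few UMIs. This comparison was added after the groups were seen. With all control XY members in cell group 3, the clustering itself placed dKO XY cells unlike them outside it. The 706 genes were also picked by their calls over all members. A smaller difference within the group thus follows in part from how cells and genes were chosen. It does not show which cells carried the difference, here and wherever cell group 3 is set beside all members. In sums over all members, a change within cells and a change in the mix of cells cannot be told apart. Without the cells of group 4, 1001 genes were called.

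By size, the 8 largest rises among well expressed genes were *Irx3*, *Mt2*, *RP23-145I16.5*, *Mt1*, *Enpp2*, *Cst12*, *Kctd14* and *Cfap161*. *Irx3* was at 0 in both control XY libraries, at 46.0 and 52.1 CPM in dKO XY and at 153 and 71.7 in control XX. With no UMI in control XY, it was at least 38.7-fold higher in dKO XY, counting 3 UMIs over the control XY group. *Mt1* and *Mt2*, which encode the metal-binding metallothioneins, lie 5513 bases apart on chromosome 8 of GRCm38 (*Mt2* from 94172664 to 94173568, *Mt1* from 94179082 to 94180327). *Mt1* was at 5.72 and 32.2 CPM in control XY, at 891 and 809 in dKO XY and at 1647 and 1259.6 in control XX (log2 fold change 5.47 ± 0.46, adjusted p = 0.00112 for dKO XY against control XY). *Mt2* was at 0 and 4.49 CPM in control XY, at 162 and 181 in dKO XY and at 281 and 203 in control XX (log2 fold change 6.14 ± 0.46, adjusted p = 0.000776). For neither gene did control XY overlap the other libraries. *Enpp2*, which encodes the secreted enzyme autotaxin, was at 1.91 and 0.748 CPM in control XY, at 54.4 and 55.7 in dKO XY and at 56.2 and 36.3 in control XX. With 3 UMIs in control XY, its ratio to control XY was 43.7 in dKO XY (exact 95% interval 14.9 to 213, for counting error only). *Cst12*, a cystatin gene, was at 0 and 3.74 CPM in control XY, at 79.3 and 75.5 in dKO XY and at 173 and 53.4 in control XX (log2 fold change 5.25 ± 0.83, adjusted p = 0.00832). In control XY, *Irx3*, *Mt2*, *RP23-145I16.5*, *Enpp2*, *Cst12* and *Cfap161* had 0 to 7 UMIs in all and did not reach the filter on low counts (2.12 CPM in 2 libraries), so they were tested through the groups where they were high and could only come out higher. Of the other genes named as called, the lower group did not reach the filter in *Nr0b1* and *Nog* (dKO XY against control XY), *Nr0b1* and *Ren1* (control XX against control XY) and *Cyp17a1*, *Cyp26b1*, *Gli1* and *Inhba* (dKO XY against control XX).

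The 8 largest falls among well expressed genes were *Angptl7*, *Sostdc1*, *Enpp6*, *Col1a1*, *S100a6*, *Itm2a*, *Stmn2* and *Sema3d*. *Sostdc1*, which encodes a secreted antagonist of BMP and WNT ligands, was at 114 and 112 CPM in control XY, at 5.16 and 8.13 in dKO XY and at 2.24 and 14.2 in control XX (log2 fold change -4.06 ± 0.61, adjusted p = 0.00674). *Enpp6*, a choline phosphodiesterase gene, was at 108 and 105 CPM in control XY, at 7.98 and 6.46 in dKO XY and at 11.6 and 22.7 in control XX (log2 fold change -3.82 ± 0.34, adjusted p = 0.00112). For both genes dKO XY and control XX lay below control XY. *Angptl7*, an angiopoietin-like gene, was at 66.7 and 102 CPM in control XY, at 4.54 and 3.54 in dKO XY and at 27.3 and 79.6 in control XX (log2 fold change -4.32 ± 0.55, adjusted p = 0.0036). Here control XX overlapped control XY, and dKO XY was the lowest group. *Col1a1* was at 2683 and 2456 CPM in control XY, at 219.6 and 225 in dKO XY and at 259 and 1411 in control XX and was lower in dKO XY (log2 fold change -3.49 ± 0.63, adjusted p = 0.0127). The control XX libraries lay far apart in it, and their difference from control XY was not called (log2 fold change -1.54 ± 0.58, adjusted p = 0.166). *Stmn2* (0.41) and *Sema3d* (0.22) turned in log2 difference between dKO XY and control XY in cell group 3, without a call.

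**Figure D4:**
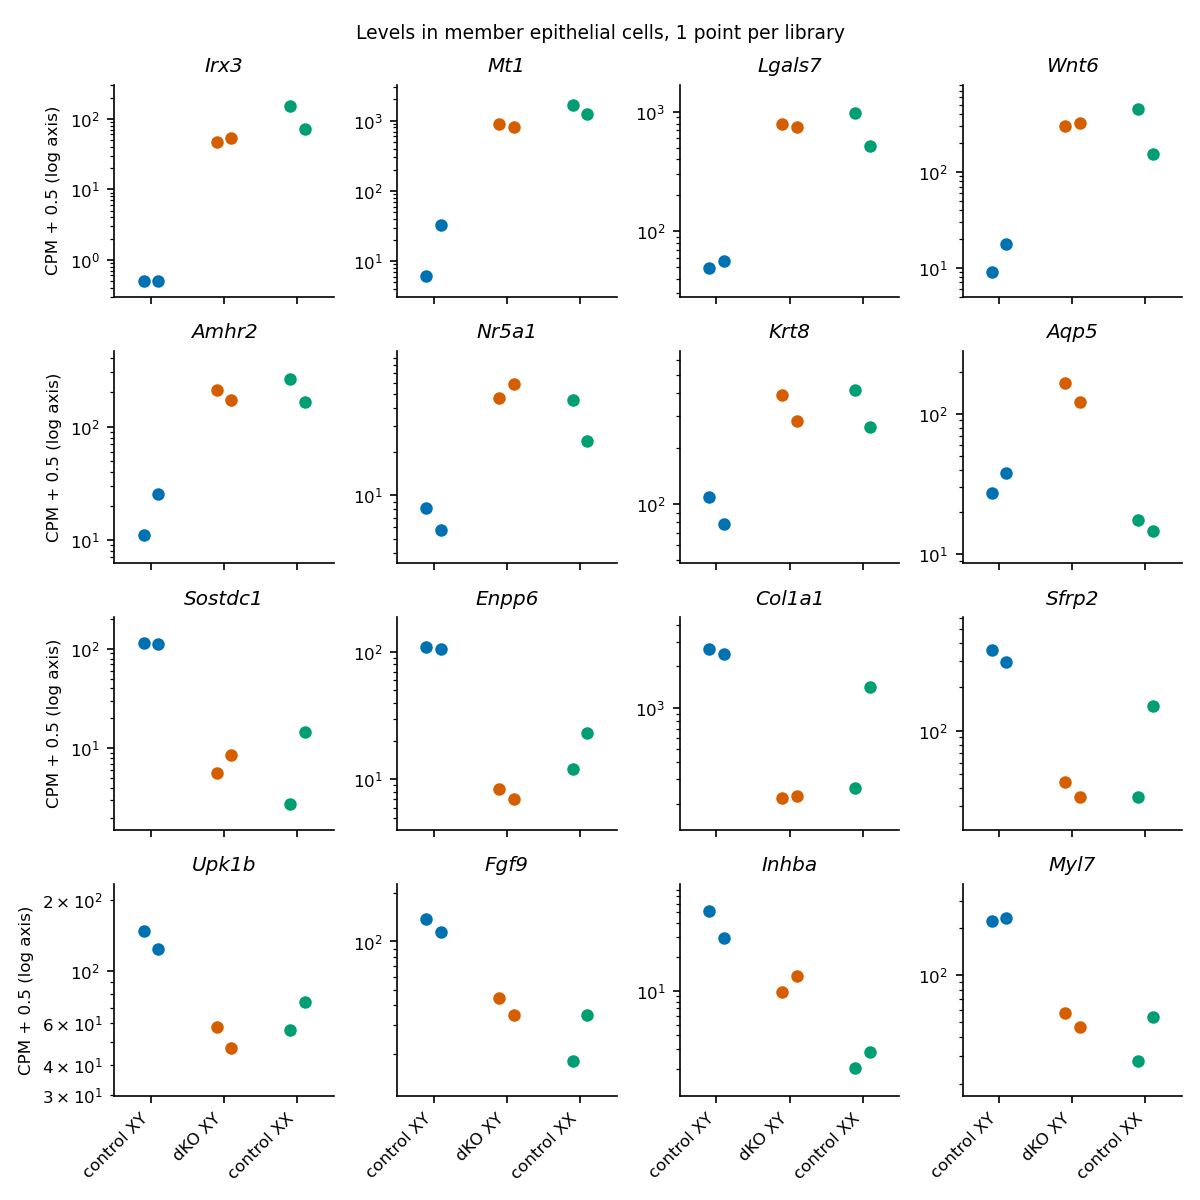
Level of 16 genes in the member cells of each library, in CPM on a log axis to which 0.5 was added, with 1 point per library, grouped as control XY, dKO XY and control XX. The upper 8 panels show genes called higher and the lower 8 genes called lower in dKO XY than in control XY, and in all 16 panels the libraries of these groups do not overlap.

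In cell group 3, the 5 genes called lower in dKO XY than in control XY were *Myl7*, *Sostdc1*, *Enpp6*, *Fbln5* and *RP23-148L8.3*, and the 2 called higher were *Adamts5* and *Fbn2*. All but *Adamts5* were also called over all members, in the same direction. *Myl7*, an atrial myosin light chain gene, was at 224 and 232 CPM in control XY, at 40.1 and 48.0 in dKO XY and at 106 and 73.8 in control XX in these cells (log2 fold change -2.42 ± 0.27, adjusted p = 0.00194). *Sostdc1* was at 114 and 112 CPM in control XY, at 27.2 and 22.2 in dKO XY and at 19.3 and 29.1 in control XX (log2 fold change -2.16 ± 0.32, adjusted p = 0.0211). *Enpp6* was at 108 and 105 CPM in control XY, at 17.6 and 18.5 in dKO XY and at 83.4 and 40.9 in control XX (log2 fold change -2.58 ± 0.39, adjusted p = 0.0211). In all 3 genes both dKO XY libraries were below both control XY libraries in this cell group too. The levels of *Sostdc1*, *Enpp6* and, below, *Mt1* in dKO XY replicate 2 rest on few UMIs from 9 cells, without an interval for counting error. *Fbln5*, which encodes a fibulin of elastic fibres, was at 114 and 135 CPM in control XY, at 33.6 and 44.3 in dKO XY and at 80.3 and 79.7 in control XX (log2 fold change -1.75 ± 0.28, adjusted p = 0.0238). *Fbn2*, which encodes a fibrillin of microfibrils, was at 42.0 and 52.3 CPM in control XY, at 139 and 196 in dKO XY and at 51.9 and 79.2 in control XX (log2 fold change 1.76 ± 0.29, adjusted p = 0.027). *Adamts5*, which encodes an aggrecan-cleaving protease, was at 22.9 and 14.96 CPM in control XY, at 76.9 and 88.6 in dKO XY and at 36.6 and 29.1 in control XX (log2 fold change 2.11 ± 0.32, adjusted p = 0.0211). *Mt1*, *Col1a1* and *Lgals7*, called over all members, were not called between dKO XY and control XY within the group. *Mt1* was at 5.72 and 32.2 CPM in control XY, at 8.01 and 11.1 in dKO XY and at 51.9 and 61.4 in control XX (log2 fold change -1.14 ± 0.73, adjusted p = 0.998). Both control XX libraries had *Mt1* above the 4 XY libraries, and it was not called there either (adjusted p = 0.126 against control XY and 0.0635 for dKO XY against control XX). *Col1a1* was at 2683 and 2456 CPM in control XY, at 1751 and 2821 in dKO XY and at 1789.5 and 2998 in control XX (log2 fold change -0.19 ± 0.28, adjusted p = 0.998). *Lgals7*, the gene of galectin 7, was at 48.6 and 55.3 CPM in control XY, at 57.7 and 62.8 in dKO XY and at 95.6 and 69.5 in control XX (log2 fold change 0.18 ± 0.28, adjusted p = 0.998). Over all members *Lgals7* was at 48.6 and 55.3 CPM in control XY, at 787 and 749 in dKO XY and at 976 and 513 in control XX (log2 fold change 3.93 ± 0.29, adjusted p = 0.000776).

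**Figure D5:**
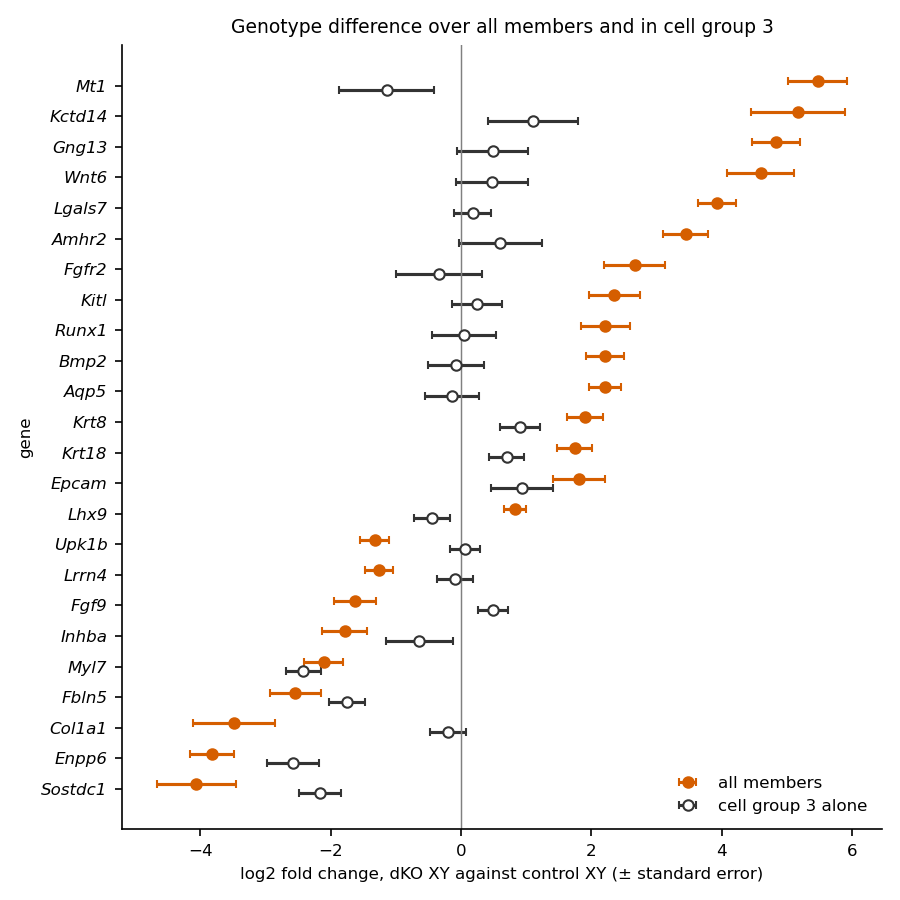
Log2 difference of dKO XY from control XY for 24 genes named in the text, over all member cells (filled points) and over the cells of group 3 alone (open points), with lines of 1 standard error to each side. Of the 24 genes, 18 lie within 1 of 0 among the cells of group 3 and 1 (*Lhx9*) over all members, while *Myl7*, *Sostdc1*, *Enpp6* and *Fbln5* stay below -1 in both.

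Markers of the coelomic epithelium were lower or not called in dKO XY. Of the 8 measured genes of that list that the rule did not use, 3 fell and none rose, with a median log2 difference of -0.88, against 0.02 over all genes. Over all genes tested, 3.3% rose and 3.86% fell in dKO XY and 2.77% rose and 2.45% fell in control XX, and the counts of this and the following lists stand beside these shares. In many of the following lists some genes did not reach the filter on low counts in a group, which could only come out lower in them. *Upk1b*, at the levels given above, was lower in dKO XY (log2 fold change -1.32 ± 0.22, adjusted p = 0.0101). *Lrrn4*, a mesothelial membrane protein gene, was at 117 and 135 CPM in control XY, at 45.8 and 56.7 in dKO XY and at 29.2 and 39.7 in control XX (log2 fold change -1.26 ± 0.22, adjusted p = 0.0105). *Bnc1*, which encodes the zinc finger protein basonuclin, was at 85.8 and 92.0 CPM in control XY, at 35.2 and 49.2 in dKO XY and at 33.7 and 43.4 in control XX (log2 fold change -1.04 ± 0.23, adjusted p = 0.0258). *Krt7* (log2 fold change -0.71 ± 0.21, adjusted p = 0.0775) and *Tm4sf5* (log2 fold change -0.08 ± 0.24, adjusted p = 0.883) were not called. The median of the list in cell group 3 was 0.00, none was called and 0 had an unadjusted p under 0.05, with *Upk1b* at 147 and 123 CPM in control XY, at 149 and 133 in dKO XY and at 83.4 and 83.5 in control XX (log2 difference 0.061). In control XX, 4 of the 8 fell against control XY. These were *Upk1b* (log2 fold change -1.01 ± 0.22, adjusted p = 0.0309), *Lrrn4* (log2 fold change -1.83 ± 0.22, adjusted p = 0.00238), *Bnc1* (log2 fold change -1.16 ± 0.23, adjusted p = 0.0197) and *Msln*, which encodes mesothelin, at 25.7 and 22.4 CPM in control XY, at 12.5 and 9.38 in dKO XY and at 5.32 and 7.94 in control XX (log2 fold change -1.83 ± 0.34, adjusted p = 0.0161). The comparisons of dKO XY and of control XX with control XY share the control XY libraries, here and in what follows.

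*Krt8* and *Krt18*, keratin genes of simple epithelia, were higher in dKO XY and control XX than in control XY. They encode partners of the same filament and lie 23697 bases apart on chromosome 15. *Krt8* was at 109 and 77.8 CPM in control XY, at 388 and 282 in dKO XY and at 412 and 261 in control XX. *Krt8* had a log2 fold change from control XY of 1.90 ± 0.28 in dKO XY (adjusted p = 0.00584) and of 1.91 ± 0.28 in control XX (adjusted p = 0.00588). *Krt18* was at 144 and 117 CPM in control XY, at 515 and 327 in dKO XY and at 505 and 346 in control XX. *Krt18* had a log2 fold change from control XY of 1.74 ± 0.27 in dKO XY (adjusted p = 0.00737) and of 1.76 ± 0.27 in control XX (adjusted p = 0.00746). In all 4 libraries of dKO XY and control XX both genes were above both control XY libraries. Within group 3, *Krt8* was at 109 and 77.8 CPM in control XY, at 229 and 103 in dKO XY and at 88.5 and 71.1 in control XX and was not called (log2 fold change 0.91 ± 0.31, adjusted p = 0.989), and in control XX against control XY both genes turned, without a call (log2 fold change -0.76 ± 0.26 for *Krt18* and -0.19 ± 0.30 for *Krt8*). Of the 8 measured keratin and uroplakin genes outside the rule, 2 rose and 1 fell in dKO XY, 2 rose and 2 fell in control XX, and none was called between dKO XY and control XX by edgeR or DESeq2 (1 with an unadjusted p under 0.05).

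In the list of mesothelial genes, 1 of 17 rose and 4 fell in dKO XY against control XY, and 2 rose and 6 fell in control XX. *Lgals7* rose in both. *Rarres2*, which encodes chemerin, was at 297 and 247 CPM in control XY, at 85.9 and 58.4 in dKO XY and at 82.6 and 142 in control XX and fell in both. *Rarres2* had a log2 fold change from control XY of -1.86 ± 0.30 in dKO XY (adjusted p = 0.00919) and of -1.21 ± 0.30 in control XX (adjusted p = 0.0474). *Crip1*, which encodes a LIM domain protein, was at 390.0 and 239 CPM in control XY, at 99.3 and 46.7 in dKO XY and at 76.0 and 149 in control XX (log2 fold change -2.05 ± 0.43, adjusted p = 0.0226 for dKO XY against control XY), and 0.073 in log2 difference in cell group 3, without a call. *Gpm6a*, a membrane glycoprotein gene, was at 103 and 94.2 CPM in control XY, at 62.7 and 65.0 in dKO XY and at 18.9 and 23.8 in control XX. It was lower in control XX than in control XY (log2 fold change -2.16 ± 0.20, adjusted p = 0.000927) and higher in dKO XY than in control XX (log2 fold change 1.58 ± 0.19, adjusted p = 0.00476).

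Among 17 genes of junctions and polarity, 4 rose and 2 fell in dKO XY, and 1 rose and 2 fell in control XX. *Epcam*, an epithelial adhesion gene, was at 11.4 and 29.9 CPM in control XY, at 78.5 and 66.3 in dKO XY and at 120.0 and 62.0 in control XX and rose in both. *Epcam* had a log2 fold change from control XY of 1.81 ± 0.40 in dKO XY (adjusted p = 0.0266) and of 2.15 ± 0.40 in control XX (adjusted p = 0.0156). *Cdh2*, which encodes N-cadherin, was at 23.8 and 38.1 CPM in control XY, at 64.4 and 71.1 in dKO XY and at 74.9 and 42.3 in control XX and rose in dKO XY (log2 fold change 1.16 ± 0.30, adjusted p = 0.0473), but not in cell group 3 (log2 difference -0.082). *Dsg2*, which encodes a desmoglein of desmosomes, was at 2.86 and 13.5 CPM in control XY, at 29.6 and 39.6 in dKO XY and at 11.3 and 9.01 in control XX. Its dKO XY level was above control XY (log2 fold change 2.04 ± 0.43, adjusted p = 0.0226) and above control XX (log2 fold change 1.74 ± 0.33, adjusted p = 0.0436). *Pard6b*, a polarity gene, was at 35.3 and 20.9 CPM in control XY, at 7.98 and 7.92 in dKO XY and at 8.86 and 9.87 in control XX, highest in control XY. *Pard6b* had a log2 fold change from control XY of -1.75 ± 0.32 in dKO XY (adjusted p = 0.0135) and of -1.52 ± 0.32 in control XX (adjusted p = 0.0254). *Cdh1*, which encodes E-cadherin, was at no more than 8.13 CPM in any library.

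Transcription factor genes of the early gonad were called in both directions. Of 19 measured genes of that list, 3 rose and 4 fell in dKO XY, and 3 rose and 1 fell in control XX. *Nr5a1* was at 7.63 and 5.23 CPM in control XY, at 46.4 and 58.8 in dKO XY and at 44.9 and 23.2 in control XX, lowest in control XY. *Nr5a1* had a log2 fold change from control XY of 3.10 ± 0.41 in dKO XY (adjusted p = 0.00445) and of 2.49 ± 0.43 in control XX (adjusted p = 0.011). *Nr0b1*, which encodes the nuclear receptor DAX1, was at 1.91 and 0.748 CPM in control XY, at 46.9 and 35.2 in dKO XY and at 33.3 and 22.1 in control XX. With 3 UMIs in control XY it was tested through the other groups, and its ratio to control XY was 33.3 in dKO XY (exact 95% interval 11.3 to 162, for counting error only) and 23.3 in control XX (7.92 to 114). *Lhx9* was at 221 and 255 CPM in control XY, at 421 and 397 in dKO XY and at 386 and 294 in control XX and was called in dKO XY and not in control XX. *Lhx9* had a log2 fold change from control XY of 0.83 ± 0.17 in dKO XY (adjusted p = 0.0223) and of 0.57 ± 0.17 in control XX (adjusted p = 0.095). Among the genes that fell in dKO XY were *Tcf21*, a gene of the interstitial lineage, *Nr2f1* and *Nr2f2*. *Tcf21* was at 511 and 355 CPM in control XY, at 85.9 and 80.5 in dKO XY and at 61.4 and 230.3 in control XX (log2 fold change -2.34 ± 0.51, adjusted p = 0.0258), with the control XX libraries far apart. *Lhx9* (-0.44) and *Nr2f1* (0.17) turned in log2 difference in cell group 3 and were not called. *Gata4* (log2 fold change 0.39 ± 0.20, adjusted p = 0.27) and *Wt1* (log2 fold change -0.16 ± 0.21, adjusted p = 0.719), which are expressed throughout the somatic gonad or its epithelium, were not called.

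Several genes of early granulosa cells were higher in dKO XY and in control XX than in control XY. Of 13 measured genes of that list, 7 rose in dKO XY and 9 in control XX, against 3.3% and 2.77% of all genes tested. In control XY, 4 of the 13 did not reach the filter on low counts, among them *Irx3*, *Irx5* and *Foxl2* with no UMI. These genes were tested through the other groups and could only come out higher, so the counts are a description. *Gng13* was at 7.63 and 9.72 CPM in control XY, at 277 and 208 in dKO XY and at 778 and 438 in control XX, with dKO XY between the other groups. The dKO XY level was above control XY (log2 fold change 4.84 ± 0.37, adjusted p = 0.000776) and below control XX (log2 fold change -1.32 ± 0.25, adjusted p = 0.0436). *Lgr5*, which encodes a receptor of R-spondins, was at 4.77 and 8.97 CPM in control XY, at 54.6 and 71.3 in dKO XY and at 125 and 40.3 in control XX. *Lgr5* had a log2 fold change from control XY of 3.19 ± 0.61 in dKO XY (adjusted p = 0.0152) and of 3.59 ± 0.60 in control XX (adjusted p = 0.0096). *Runx1*, a transcription factor gene of the supporting lineage, was at 18.1 and 20.9 CPM in control XY, at 90.2 and 86.1 in dKO XY and at 103 and 44.2 in control XX. *Runx1* had a log2 fold change from control XY of 2.21 ± 0.38 in dKO XY (adjusted p = 0.011) and of 1.96 ± 0.38 in control XX (adjusted p = 0.019). For these genes control XY was below all 4 other libraries. *Kctd14*, a gene of the supporting lineage, was at 3.81 and 22.4 CPM in control XY, at 391 and 580.4 in dKO XY and at 429 and 111 in control XX (log2 fold change 5.17 ± 0.72, adjusted p = 0.0052 for dKO XY). *Irx5*, which lies 555557 bases from *Irx3* on chromosome 8, had no UMI in control XY and was at 3.44 and 5.84 CPM in dKO XY and 21.6 and 10.9 CPM in control XX. *Foxl2* is the defining transcription factor gene of granulosa cells. It was at 0 in both control XY libraries, 2.35 and 4.59 CPM in dKO XY and 11.2 and 1.93 CPM in control XX, and was not called. *Fst*, which encodes follistatin, was at 64.8 and 66.6 CPM in control XY, at 55.4 and 42.1 in dKO XY and at 127 and 23.6 in control XX and was not called (log2 fold change from control XY -0.38 ± 0.59 in dKO XY, adjusted p = 0.757, and 0.25 ± 0.58 in control XX, adjusted p = 0.859), but its 2 control XX libraries decided the direction. Without control XX replicate 1 it was lower in control XX than in control XY (log2 fold change -1.37 ± 0.28, adjusted p = 0.00611), and without control XX replicate 2 it was higher (0.99 ± 0.24, adjusted p = 0.00766), each with 1 control XX library whose spread was taken from the other groups. Within group 3, 8 genes of the list could be tested. None was called between dKO XY and control XY, 0 had an unadjusted p under 0.05, and their median log2 difference was 0.02, against 1.35 for the same genes over all members. Supporting lineage cells of the same libraries had *Lgr5* at 13.8 and 16.6 CPM in control XY, at 37.8 and 38.1 in dKO XY and at 92.9 and 57.6 in control XX, control XY being lowest there too, and the part of free RNA in the levels of the members was not tested. The whole list summed to 455 and 484 CPM in control XY members against 1431 and 1524 in dKO XY. In the supporting lineage these sums were 990 and 925 against 2372 and 2467 CPM. They were 394 and 420 against 480 and 582 CPM in stromal cells, and 169 and 220 against 225 and 302 CPM in endothelial cells. In each of these classes both control XX libraries were above control XY as well.

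Of 13 measured genes of interstitial cells, 7 fell and none rose in dKO XY (3.86% of all genes fell), with a median log2 difference of -1.78, and in control XX 5 fell and none rose. Of the 13, 2 did not reach the filter on low counts in dKO XY, 3 in control XX and 1 in control XY. A group that did not reach it could only come out lower, so the counts are a description. *Col3a1*, which encodes the chain of type III collagen, was at 2168 and 2343 CPM in control XY, at 543 and 556 in dKO XY and at 621 and 1239.6 in control XX. *Col3a1* had a log2 fold change from control XY of -1.99 ± 0.30 in dKO XY (adjusted p = 0.0069) and of -1.21 ± 0.29 in control XX (adjusted p = 0.0461). *Dcn*, which encodes the proteoglycan decorin, was at 1061 and 1136 CPM in control XY, at 343 and 304 in dKO XY and at 249.9 and 753 in control XX. *Dcn* had a log2 fold change from control XY of -1.72 ± 0.42 in dKO XY (adjusted p = 0.0388) and of -1.06 ± 0.41 in control XX (adjusted p = 0.178). The high control XX value of both genes was in replicate 2, the library with more of its members in cell group 3. *Pdgfra*, a defining gene of interstitial cells, was at 62.0 and 104 CPM in control XY, at 46.1 and 66.7 in dKO XY and at 32.5 and 68.9 in control XX and was not called (log2 fold change -0.53 ± 0.38, adjusted p = 0.464). *Col3a1* turned in cell group 3, without a call (log2 difference 0.27 in dKO XY and 0.073 in control XX). In cell group 3, 12 of these genes had a median log2 difference of -0.48 between dKO XY and control XY, and *Sostdc1* was the gene called. The 13 genes together made up 7214 and 7264 CPM of the members of control XY, 1686 and 1728 CPM in dKO XY and 1434 and 4056 CPM in control XX, and their share that came from stromal cells or free RNA was not tested. In stromal cells they summed to 8008 and 7622 CPM in control XY against 5108 and 5167 in dKO XY. In endothelial cells these sums were 1024 and 1254 against 538 and 646 CPM, and in the supporting lineage 616 and 588 against 716 and 641 CPM.

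In the list of genes of the epithelial to mesenchymal transition, 8 of 17 fell and 2 rose in dKO XY. *Mmp2*, a matrix metalloproteinase gene, was at 189.7 and 250.5 CPM in control XY, at 38.5 and 37.5 in dKO XY and at 45.7 and 139 in control XX (log2 fold change -2.49 ± 0.45, adjusted p = 0.0127). *Twist1*, a transcription factor gene, was at 62.9 and 55.3 CPM in control XY, at 14.2 and 8.76 in dKO XY and at 9.10 and 28.1 in control XX (log2 fold change -2.29 ± 0.50, adjusted p = 0.0248). *Tagln*, a gene of contractile cells, was at 489 and 1150.0 CPM in control XY, at 146 and 65.0 in dKO XY and at 145 and 542 in control XX (log2 fold change -2.89 ± 0.64, adjusted p = 0.0272). *Acta2*, which encodes the actin of smooth muscle, was at 101 and 526 CPM in control XY, at 60.4 and 33.4 in dKO XY and at 65.1 and 173 in control XX (log2 fold change -2.68 ± 0.69, adjusted p = 0.0467). *Snai2*, which encodes another transcription factor of that process, was at 27.7 and 37.4 CPM in control XY, at 59.6 and 67.8 in dKO XY and at 48.1 and 50.9 in control XX and rose in dKO XY (log2 fold change 1.00 ± 0.21, adjusted p = 0.021), as did *Cdh2*. Of the same list, edgeR called 1 gene in control XX, *Col3a1*, which fell, and DESeq2 called 2. By edgeR, 11 of the 17 genes had an unadjusted p under 0.05 in control XX against control XY, and 12 in dKO XY against control XY. *Snai2* turned in cell group 3 (log2 difference -0.085). None of the 17 was called in cell group 3 between dKO XY and control XY, and 3 had an unadjusted p under 0.05.

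Among 41 genes of AMH, activin, TGF-beta and BMP signalling, 3 rose and 6 fell in dKO XY, and 3 rose and 3 fell in control XX. *Amhr2*, the receptor gene of AMH, was at 10.5 and 24.7 CPM in control XY, at 209 and 173 in dKO XY and at 264 and 163 in control XX, lowest in control XY. *Amhr2* had a log2 fold change from control XY of 3.44 ± 0.34 in dKO XY (adjusted p = 0.00148) and of 3.61 ± 0.34 in control XX (adjusted p = 0.000927). Of the ligand genes, *Bmp2* was at 15.3 and 17.2 CPM in control XY, at 73.0 and 72.3 in dKO XY and at 85.2 and 49.4 in control XX. *Bmp2* had a log2 fold change from control XY of 2.20 ± 0.29 in dKO XY (adjusted p = 0.0043) and of 2.10 ± 0.29 in control XX (adjusted p = 0.00509). *Bmp7*, another BMP ligand gene, was at 4.77 and 4.49 CPM in control XY, at 24.2 and 26.9 in dKO XY and at 20.4 and 10.9 in control XX. *Bmp7* had a log2 fold change from control XY of 2.51 ± 0.42 in dKO XY (adjusted p = 0.00977) and of 1.84 ± 0.43 in control XX (adjusted p = 0.041). All 3 genes were higher in every dKO XY and control XX library than in control XY. *Bmp4* was at 33.4 and 43.4 CPM in control XY, at 47.5 and 58.0 in dKO XY and at 4.84 and 9.44 in control XX, lowest in control XX. Its dKO XY level was above control XX (log2 fold change 2.93 ± 0.30, adjusted p = 0.00192), and the gene was not called between dKO XY and control XY (log2 fold change 0.49 ± 0.29, adjusted p = 0.367). *Inhba*, which encodes the beta A subunit of activin A, was at 50.5 and 29.2 CPM in control XY, at 9.23 and 13.1 in dKO XY and at 1.54 and 2.36 in control XX, with dKO XY between the other groups. It was lower in dKO XY than in control XY (log2 fold change -1.78 ± 0.35, adjusted p = 0.0169) and higher than in control XX (log2 fold change 2.55 ± 0.41, adjusted p = 0.0209). *Tgfb2* was at 98.2 and 194 CPM in control XY, at 31.0 and 39.6 in dKO XY and at 56.2 and 121 in control XX (log2 fold change -2.02 ± 0.40, adjusted p = 0.0187 for dKO XY against control XY). *Tgfb3* was at 51.5 and 58.3 CPM in control XY, at 20.96 and 29.6 in dKO XY and at 26.8 and 34.3 in control XX (log2 fold change -1.08 ± 0.24, adjusted p = 0.0279). The log2 differences of *Tgfb2* (0.37), *Tgfb3* (0.23) and *Bmp2* (-0.074) between dKO XY and control XY turned in cell group 3, and none was called. The antagonist gene *Nog* was at 10.5 and 15.7 CPM in control XY, at 0.782 and 0.834 in dKO XY and at 3.43 and 7.30 in control XX (log2 fold change -3.94 ± 0.61, adjusted p = 0.00737). *Id2*, a gene that BMP signals induce in many cells, was at 289 and 301 CPM in control XY, at 101 and 52.3 in dKO XY and at 166 and 408 in control XX and was lower in dKO XY (log2 fold change -1.89 ± 0.43, adjusted p = 0.0299), whereas *Id1*, of the same family, was at 808 and 698 CPM in control XY, at 751 and 298 in dKO XY and at 628 and 981 in control XX and was not called (log2 fold change -0.47 ± 0.39, adjusted p = 0.532). The receptor genes *Bmpr1a*, *Acvr2a*, *Acvr2b* and *Tgfbr1* and the transducer genes *Smad1*, *Smad2*, *Smad3*, *Smad4* and *Smad5* were not called in any of the 3 comparisons.

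In WNT and R-spondin signalling, 5 of 26 genes rose and 5 fell in dKO XY, and 8 rose and 2 fell in control XX. The ligand gene *Wnt6* was at 8.58 and 17.2 CPM in control XY, at 299 and 321 in dKO XY and at 445 and 154 in control XX, lowest in control XY. *Wnt6* had a log2 fold change from control XY of 4.59 ± 0.52 in dKO XY (adjusted p = 0.00258) and of 4.54 ± 0.52 in control XX (adjusted p = 0.00179). *Wnt5a*, a ligand gene of mesenchyme, was at 364 and 468 CPM in control XY, at 72.9 and 87.4 in dKO XY and at 70.5 and 182 in control XX, highest in control XY. *Wnt5a* had a log2 fold change from control XY of -2.33 ± 0.39 in dKO XY (adjusted p = 0.00962) and of -1.66 ± 0.38 in control XX (adjusted p = 0.036). *Wnt4*, a ligand gene needed for the ovary, was at 72.5 and 95.7 CPM in control XY, at 54.9 and 49.6 in dKO XY and at 188 and 127 in control XX. It was lower in dKO XY than in control XX (log2 fold change -1.60 ± 0.21, adjusted p = 0.00712) and higher in control XX than in control XY (log2 fold change 0.95 ± 0.22, adjusted p = 0.0358). *Rspo1*, which encodes an R-spondin, was at 247 and 219 CPM in control XY, at 334 and 305 in dKO XY and at 230.3 and 173 in control XX and was not called in any comparison. The R-spondin receptor gene *Lgr4* was at 36.2 and 41.1 CPM in control XY, at 121 and 129 in dKO XY and at 96.1 and 90.1 in control XX. *Lgr4* had a log2 fold change from control XY of 1.73 ± 0.18 in dKO XY (adjusted p = 0.00148) and of 1.32 ± 0.18 in control XX (adjusted p = 0.00396). *Sp5*, a direct WNT target gene, was at 19.1 and 17.2 CPM in control XY, at 71.2 and 55.7 in dKO XY and at 103 and 53.7 in control XX. *Sp5* had a log2 fold change from control XY of 1.86 ± 0.35 in dKO XY (adjusted p = 0.0139) and of 2.17 ± 0.34 in control XX (adjusted p = 0.00828). *Axin2*, another target, was at 20.02 and 30.7 CPM in control XY, at 37.5 and 48.0 in dKO XY and at 72.9 and 44.6 in control XX and was called in control XX and not in dKO XY. *Axin2* had a log2 fold change from control XY of 0.78 ± 0.30 in dKO XY (adjusted p = 0.152) and of 1.25 ± 0.29 in control XX (adjusted p = 0.0387). *Sfrp1* and *Sfrp2*, which encode secreted inhibitors, were highest in control XY. *Sfrp1* was at 182 and 233 CPM in control XY, at 35.5 and 31.7 in dKO XY and at 35.0 and 105 in control XX (log2 fold change -2.58 ± 0.44, adjusted p = 0.0105 for dKO XY against control XY). *Sfrp2* was at 359 and 299 CPM in control XY, at 43.6 and 34.4 in dKO XY and at 34.5 and 148 in control XX (log2 fold change -3.02 ± 0.56, adjusted p = 0.0138), and turned in cell group 3 without a call (log2 difference 0.35).

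Of 26 growth factor and receptor genes, 4 rose and 4 fell in dKO XY, and 4 rose and 3 fell in control XX. *Fgfr2*, which encodes a receptor of FGF ligands, was at 10.5 and 9.72 CPM in control XY, at 55.2 and 68.8 in dKO XY and at 83.0 and 33.3 in control XX, lowest in control XY. *Fgfr2* had a log2 fold change from control XY of 2.66 ± 0.46 in dKO XY (adjusted p = 0.0115) and of 2.59 ± 0.46 in control XX (adjusted p = 0.0138). The ligand gene *Fgf9* was at 137 and 114 CPM in control XY, at 44.3 and 34.2 in dKO XY and at 17.6 and 34.6 in control XX, highest in control XY. *Fgf9* had a log2 fold change from control XY of -1.63 ± 0.32 in dKO XY (adjusted p = 0.0169) and of -2.23 ± 0.33 in control XX (adjusted p = 0.00605). *Kitl* was at 30.5 and 28.4 CPM in control XY, at 162 and 128 in dKO XY and at 441 and 183 in control XX. *Kitl* had a log2 fold change from control XY of 2.35 ± 0.39 in dKO XY (adjusted p = 0.0098) and of 3.45 ± 0.39 in control XX (adjusted p = 0.00182). *Vegfa*, a gene of vessel growth, was at 22.9 and 34.4 CPM in control XY, at 94.6 and 84.9 in dKO XY and at 70.0 and 52.4 in control XX. *Vegfa* had a log2 fold change from control XY of 1.68 ± 0.24 in dKO XY (adjusted p = 0.00522) and of 1.14 ± 0.24 in control XX (adjusted p = 0.0254). *Igfbp2*, which encodes an IGF-binding protein, was at 253 and 372 CPM in control XY, at 1243 and 958 in dKO XY and at 1247 and 727 in control XX. *Igfbp2* had a log2 fold change from control XY of 1.87 ± 0.28 in dKO XY (adjusted p = 0.00651) and of 1.71 ± 0.27 in control XX (adjusted p = 0.00876). These 3 genes were higher in every dKO XY and control XX library than in control XY. *Fgf9* (0.49), *Fgfr2* (-0.33) and *Igfbp2* (-0.13) turned in log2 difference between dKO XY and control XY in cell group 3, as did *Igfbp2* in control XX (-0.25), with no call. *Igf1* was at 315 and 243 CPM in control XY, at 76.2 and 54.8 in dKO XY and at 133 and 230.3 in control XX and fell in dKO XY (log2 fold change -2.04 ± 0.31, adjusted p = 0.00688).

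In the basement membrane and matrix list, 2 of 23 genes rose and 3 fell in dKO XY, and 2 rose and 4 fell in control XX. *Itga6*, a laminin receptor gene, was at 6.67 and 27.7 CPM in control XY, at 172 and 206 in dKO XY and at 209 and 68.7 in control XX. *Itga6* had a log2 fold change from control XY of 3.44 ± 0.58 in dKO XY (adjusted p = 0.00999) and of 2.998 ± 0.58 in control XX (adjusted p = 0.0185). *Lama1*, a laminin gene, was at 8.58 and 8.23 CPM in control XY, at 31.6 and 36.7 in dKO XY and at 45.9 and 24.3 in control XX. *Lama1* had a log2 fold change from control XY of 2.07 ± 0.38 in dKO XY (adjusted p = 0.0135) and of 2.13 ± 0.38 in control XX (adjusted p = 0.0128). *Col18a1*, which encodes a collagen of basement membranes, was at 371 and 387 CPM in control XY, at 123 and 154 in dKO XY and at 77.5 and 127 in control XX and fell in both. *Col18a1* had a log2 fold change from control XY of -1.41 ± 0.25 in dKO XY (adjusted p = 0.0117) and of -1.83 ± 0.25 in control XX (adjusted p = 0.00465). Within group 3, *Col18a1* turned in dKO XY (log2 difference 0.12) and *Itga6* in control XX (-0.45), with no call. Among genes of retinoic acid, 3 of 15 fell in dKO XY, 1 fell in control XX and none rose. *Crabp2*, which encodes a retinoic acid carrier, was at 82.0 and 29.9 CPM in control XY, at 8.76 and 6.46 in dKO XY and at 11.2 and 34.6 in control XX (log2 fold change -2.79 ± 0.62, adjusted p = 0.0271). *Cyp26b1*, which encodes a retinoic acid degrading enzyme, was at 1.91 and 5.98 CPM in control XY, at 4.22 and 6.25 in dKO XY and at 0.472 and 0.215 in control XX, with dKO XY above control XX (log2 fold change 3.70 ± 0.66, adjusted p = 0.0321). *Aldh1a2*, a gene of its synthesis, was at 344 and 354 CPM in control XY, at 247 and 243 in dKO XY and at 253 and 256 in control XX and was not called in dKO XY (log2 fold change -0.47 ± 0.15, adjusted p = 0.0998). In the Notch list, 1 of 11 genes fell in dKO XY, a count that does not set the list apart from all genes, of which 3.86% fell. It was the ligand gene *Jag1*, at 27.7 and 29.2 CPM in control XY, at 9.07 and 7.09 in dKO XY and at 3.31 and 4.29 in control XX. *Jag1* had a log2 fold change from control XY of -1.75 ± 0.30 in dKO XY (adjusted p = 0.0111) and of -2.87 ± 0.32 in control XX (adjusted p = 0.00179).

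None of 16 S phase and 16 mitosis genes was called in any of the 3 comparisons by edgeR or DESeq2. Between dKO XY and control XY, 2 S phase genes and 0 mitosis genes had an unadjusted p under 0.05 by edgeR. These were 0 and 1 between control XX and control XY, and 1 and 7 between dKO XY and control XX. *Mki67*, a gene of cycling cells, was at 109.7 and 187 CPM in control XY, at 119.8 and 274 in dKO XY and at 88.9 and 124 in control XX (log2 fold change from control XY 0.44 ± 0.37 in dKO XY, adjusted p = 0.538, and -0.42 ± 0.37 in control XX, adjusted p = 0.571), and the libraries of each group overlapped those of the others. Of 16 early stress genes, which dissociation and freezing can induce, 2 fell in dKO XY and none was called in control XX by edgeR or DESeq2, where 0 had an unadjusted p under 0.05. Those that fell were the chaperone genes *Hspb1* (log2 fold change -1.24 ± 0.29, adjusted p = 0.0322) and *Dnajb1* (log2 fold change -0.90 ± 0.21, adjusted p = 0.0322). *Fos*, an early response gene, was at 3349.6 and 2615 CPM in control XY, at 3244 and 1430.5 in dKO XY and at 2032 and 4038 in control XX (log2 fold change -0.30 ± 0.41, adjusted p = 0.722). Of the 9 complement and cell surface genes, 1 rose and 2 fell in dKO XY and in control XX alike. *Esr1*, the gene of estrogen receptor alpha, was at 18.1 and 21.7 CPM in control XY, at 8.91 and 9.38 in dKO XY and at 31.5 and 32.4 in control XX, lowest in dKO XY. It was lower there than in control XY (log2 fold change -1.08 ± 0.25, adjusted p = 0.0322) and than in control XX (log2 fold change -1.81 ± 0.21, adjusted p = 0.00348).

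Markers of other cell types were also read in the members. The summed level of 8 germ cell genes was 2.86 and 2.99 CPM in control XY, 28.6 and 111 CPM in dKO XY and 18.0 and 7.51 CPM in control XX, with *Dazl* and *Dppa3* at 0 in control XY. The summed level of 7 Leydig genes in the members was 173 and 158 CPM in control XY, 231 and 187 CPM in dKO XY and 124 CPM in each control XX library. *Cyp17a1*, a gene of androgen synthesis, was at 34.3 and 33.6 CPM in control XY, at 51.8 and 34.8 in dKO XY and at 1.54 and 0 in control XX, with dKO XY above control XX (log2 fold change 5.47 ± 0.52, adjusted p = 0.0012). *Star*, which encodes the cholesterol carrier of steroid synthesis, was at 3.81 and 9.72 CPM in control XY, at 24.6 and 22.1 in dKO XY and at 24.9 and 26.8 in control XX and rose in dKO XY and control XX. *Star* had a log2 fold change from control XY of 1.77 ± 0.35 in dKO XY (adjusted p = 0.0183) and of 1.93 ± 0.35 in control XX (adjusted p = 0.0145). The Leydig genes of the members thus did not move together. The 18 Sertoli genes summed to 229 and 377 CPM in control XY, 232 and 303 CPM in dKO XY and 129 and 104 CPM in control XX, and *Cst9* was at 0 and 28.4 CPM in control XY, at 23.6 and 60.3 in dKO XY and at 1.30 and 1.07 in control XX. Endothelial genes summed to 40.0 to 103 CPM over the 6 libraries, pericyte genes to 91.5 to 594 CPM, immune genes to 3.43 to 34.2 CPM and erythroid genes to 7.63 to 130 CPM. Of 7 tested genes of mesonephric and Mullerian epithelium, 3 rose in dKO XY (*Wnt6*, *Epcam* and *Gata3*), while *Pax2*, a defining gene of the mesonephric duct, was too low to be tested. The part of free RNA and doublets in these levels was not tested. Without the 8% of cells with the highest doublet scores in each library, 772 genes were called between dKO XY and control XY.

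Control XX members differed from control XY members in 346 genes that were higher (2.77%) and 306 that were lower (2.45%) of 12479 tested, together 5.22%. In 51.3% of the genes tested the libraries of these groups did not overlap. Without control XY replicate 1, 83 genes were called, without control XY replicate 2, 68, without dKO XY replicate 1, 383, without dKO XY replicate 2, 390, and without control XX replicate 2, 1609. With only these groups in the fit 323 genes were called, and without the filter on low counts 1612. In cell group 3, 73 of 9377 genes were called (0.779%). The 8 largest rises among well expressed genes were *Irx3*, *Mt2*, *Mt1*, *Gng13*, *Cfap161*, *Cst12*, *Enpp2* and *RP23-145I16.5*. The sex chromosome list was left out of these rises and of the falls below, and all 5 of its genes were called. *Irx3* was at least 98.7-fold higher than in control XY, counting 3 UMIs over the control XY group. The 8 largest falls among well expressed genes were *Ren1*, *Stmn2*, *Sostdc1*, *Cxcl12*, *Smoc2*, *Igfbp7*, *Enpp6* and *Myl7*. *Ren1*, which encodes renin, was at 126 and 49.4 CPM in control XY, at 83.2 and 2.71 in dKO XY and at 0.591 and 0.644 in control XX (log2 fold change -7.04 ± 1.51, adjusted p = 0.0281 for control XX against control XY). Its dKO XY libraries lay far apart. *Cxcl12*, a chemokine gene, was at 125 and 167 CPM in control XY, at 31.7 and 32.9 in dKO XY and at 7.56 and 15.02 in control XX, with dKO XY between the other groups (log2 fold change -3.69 ± 0.32, adjusted p = 0.000515 for control XX against control XY). *Igfbp7*, which encodes an IGF-binding protein, was at 85.8 and 54.6 CPM in control XY, at 76.8 and 55.5 in dKO XY and at 6.14 and 9.01 in control XX (log2 fold change -3.18 ± 0.33, adjusted p = 0.00129). In it the XY groups overlapped and control XX lay below both.

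dKO XY members differed from control XX members in 145 of 12479 genes (1.16%), of which 100 rose (0.801%) and 45 fell (0.361%) in dKO XY. Without control XX replicate 1, 800 genes were called, without control XX replicate 2, 373, without control XY replicate 1 or 2, 77 each, without dKO XY replicate 1, 48, and without dKO XY replicate 2, 23. Without the cells of highest doublet score 75 genes were called, with only these libraries in the fit 88, and without the filter on low counts 971. In cell group 3, 77 of 9377 genes were called (0.821%). The 8 largest rises in dKO XY among well expressed genes were *Aqp5*, *Igfbp7*, *Smoc2*, *Bmp4*, *Ptch1*, *Akr1cl*, *Ctgf* and *Cbfa2t3*. The sex chromosome list was left out, and all 5 of its genes were called. *Ptch1*, which encodes the hedgehog receptor and is itself a target of the pathway, was at 78.2 and 74.8 CPM in control XY, at 126 and 112 in dKO XY and at 21.3 and 10.9 in control XX (log2 fold change 2.85 ± 0.26, adjusted p = 0.000899 for dKO XY against control XX). *Gli1*, a transcription factor gene that hedgehog signals induce, was at 18.1 and 20.2 CPM in control XY, at 15.8 and 15.8 in dKO XY and at 0.591 and 0.429 in control XX (log2 fold change 4.83 ± 0.36, adjusted p = 0.000215). Control XX was the lowest group in both genes, and neither was called between dKO XY and control XY. Within group 3, *Ptch1* was at 78.2 and 74.8 CPM in control XY, at 114 and 66.5 in dKO XY and at 14.2 and 9.70 in control XX. *Gli1* was there at 18.1 and 20.2 CPM in control XY, at 25.6 and 7.38 in dKO XY and at 1.02 and 0.539 in control XX, with control XX again the lowest in both genes. *Aqp5* was at 26.7 and 37.4 CPM in control XY, at 166 and 122 in dKO XY and at 17.1 and 14.2 in control XX. Its level in dKO XY was above control XX (log2 fold change 3.19 ± 0.23, adjusted p = 0.000152) and above control XY (log2 fold change 2.21 ± 0.24, adjusted p = 0.00225), the latter turning in cell group 3 without a call (log2 difference -0.14). *Akr1cl*, an aldo-keto reductase gene, was at 31.5 and 25.4 CPM in control XY, at 145 and 159 in dKO XY and at 23.7 and 18.2 in control XX, and *Ctgf*, a matricellular gene, at 34.3 and 20.9 CPM in control XY, at 226 and 117 in dKO XY and at 26.2 and 24.5 in control XX. Both were higher in dKO XY than in control XX (log2 fold change 2.83 ± 0.19, adjusted p = 0.000133 and log2 fold change 2.75 ± 0.32, adjusted p = 0.00376) and than in control XY (log2 fold change 2.47 ± 0.21, adjusted p = 0.00112 and log2 fold change 2.71 ± 0.36, adjusted p = 0.00453). These 3 genes were among the leading genes of cell group 1.

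The 8 largest falls among well expressed genes in dKO XY against control XX were *Angptl7*, *Sbspon*, *Khdrbs3*, *Ube2l6*, *Sorbs2*, *Atp1b1*, *Wnt4* and *Fxyd1*. *Sbspon*, which encodes a secreted matrix protein, was at 47.7 and 34.4 CPM in control XY, at 18.1 and 11.5 in dKO XY and at 74.4 and 68.7 in control XX (log2 fold change -2.26 ± 0.25, adjusted p = 0.00279). *Atp1b1*, which encodes a subunit of the sodium pump, was at 167 and 283 CPM in control XY, at 74.4 and 85.1 in dKO XY and at 221 and 267 in control XX (log2 fold change -1.63 ± 0.24, adjusted p = 0.0123). In both genes dKO XY lay below the libraries of both controls.

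Whether a genotype difference was particular to the epithelium was tested against the stromal cells of the same libraries, as the difference between the log2 fold changes of the 2 classes. *Mt1*, *Mt2* and *Wnt6* rose and *Slc9a3r1*, *Fbln2* and *Fbln5* fell in the epithelium of dKO XY beyond the stromal cells. All control XY members were in cell group 3, against 10.3% and 7.32% of dKO XY members, so the mix of members differed between the genotypes. Within that group the log2 difference was -1.14 for *Mt1*, 0.47 for *Wnt6* and -1.75 for *Fbln5*. Whether the differences were particular against the supporting lineage was not tested. Of 15578 genes, 446 differed upward (2.86%) and 603 downward (3.87%) in the epithelium between dKO XY and control XY, together 6.73%. Without control XY replicate 1 or 2 these were 488 and 382 genes, and without control XX replicate 1 or 2, 1795 and 1781. The 5 largest upward differences among well expressed genes were in *Mt2*, *Mt1*, *Cst12*, *Wnt6* and *Adamts19*. In control XY members *Mt2* had 0 and 6 UMIs and *Cst12* 0 and 5. Among members these genes could thus only come out higher, and the size of their differences rests on few UMIs. In stromal cells *Mt1* was at 30.2 and 39.0 CPM in control XY against 48.9 and 23.8 in dKO XY (difference of log2 fold changes 5.54 ± 0.42, adjusted p = 1.25e-05). *Wnt6* was at 62.6 and 65.6 CPM in control XY against 80.4 and 94.7 in dKO XY in stromal cells (difference of log2 fold changes 4.17 ± 0.21, adjusted p = 7.73e-07). *Nr5a1* was at 39.4 and 43.9 CPM in control XY against 38.3 and 53.8 in dKO XY in stromal cells (difference of log2 fold changes 3.005 ± 0.29, adjusted p = 4.7e-05). In these genes the stromal libraries differed little between the genotypes, unlike the members. *Krt8* (difference of log2 fold changes 0.59 ± 0.35, adjusted p = 0.394) and *Lgr5* (difference of log2 fold changes 0.52 ± 0.39, adjusted p = 0.525) were not called. The 5 largest downward differences among well expressed genes were in *Anxa3*, *Slc9a3r1*, *Fbln2*, *Tagln* and *Fbln5*. *Slc9a3r1*, which encodes the apical scaffold EBP50, was at 217 and 228 CPM in control XY, at 66.3 and 48.8 in dKO XY and at 70.4 and 104 in control XX in members and at 2.29 and 2.69 CPM in control XY against 5.97 and 5.76 in dKO XY in stromal cells (difference of log2 fold changes -3.12 ± 0.21, adjusted p = 4.42e-06). *Anxa3*, an annexin gene, was at 141 and 228 CPM in control XY, at 36.8 and 21.1 in dKO XY and at 31.1 and 69.3 in control XX in members and at 16.4 and 18.8 CPM in control XY against 33.9 and 28.5 in dKO XY in stromal cells (difference of log2 fold changes -3.43 ± 0.30, adjusted p = 2.62e-05). *Col1a1* was at 1493 and 1475 CPM in control XY against 888 and 770.2 in dKO XY in stromal cells (difference of log2 fold changes -2.62 ± 0.42, adjusted p = 0.00208).

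Between control XX and control XY, 715 genes differed upward (4.59%) and 798 downward (5.12%) in the epithelium against stromal cells, together 9.71%. Without control XY replicate 1 or 2 these were 930 and 666 genes. Among well expressed genes, the upward differences were led by *Cyp11a1*, *Star*, *Mt1*, *Mt2* and *Acsbg1*. The downward ones were led by *Fst*, *Sulf1*, *Atp1b1*, *Ltbp1* and *Plxna4*. An upward difference need not be a rise in members. A UMI of *Cyp11a1* was in 75% and 59.4% of control XY members and in 2.20% and 0.971% of control XX members. *Star* was at 49.1 and 67.2 CPM in control XY against 3.44 and 2.92 in control XX in stromal cells (difference of log2 fold changes 6.12 ± 0.29, adjusted p = 5.14e-08). *Fst* was at 0.637 and 1.40 CPM in control XY against 138 and 34.0 in control XX in stromal cells (difference of log2 fold changes -6.28 ± 0.30, adjusted p = 5.14e-08), where the members of control XX and control XY overlapped. The difference thus lay in the stromal cells for *Star* and *Fst* more than in the members. The stromal class can hold Leydig and other cells that a cut on *Pdgfra* does not part, and the mix of these was not tested.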

How the data were processed

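Single cell mRNA sequencing (10x Genomics) was performed on 6 libraries of whole gonads, 2 per genotype. The authors aligned the reads and counted UMIs per gene and barcode with Cell Ranger, with correction for barcode swapping, on mm10 per the submitters' processing notes, which also name Seurat 4.0. The deposited values used here are these raw UMI counts, not normalised. The annotation release is not given in the sources used here. The study describes biological replicates per genotype, but whether a library came from 1 animal is not given, so p-values measure the spread between libraries.

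Cells were kept by the filter of the study and members chosen by *Upk3b*, *Krt19* and *Dazl*. This rule and the gene lists were chosen with earlier results of these data known. UMIs were summed per library and genes tested with edgeR 4.0.16 (filterByExpr, TMM factors, quasi-likelihood test, 6 libraries in a fit, Benjamini-Hochberg adjustment over all genes tested) in R 4.3.3, and DESeq2 1.42.0 was an alternative. The comparison with stromal cells was fitted as an interaction with library as a block. Cells were handled with Python 3.11.15, scipy 1.17.1 and scanpy 1.11.5. Scrublet called 0 to 72 cells per library as doublets, so its calls were not used, and as an alternative the top 8% of cells by score were removed. On simulated counts of 12343 genes with 200 changed, the test of dKO XY against control XY recovered 19% of genes changed by 1 and 75% of genes changed by 2 on the log2 scale, so that many changes of the smaller size can be missed. The simulation gave all genes the same spread and changed fewer genes than were called in the data, so these rates need not hold there.

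Named by rule were the 8 largest rises and falls per comparison that were called, averaged 5 or more in log2 CPM and had no overlap between the libraries of the groups, the 20 leading genes, *Amh* and *Inhbb*, 5 genes each way for the interaction, and members of the lists. Well expressed means an average of 5 or more in log2 CPM, for the interaction too. The sex chromosome list was left out of these rises and falls, and the rule genes of those between groups. Other genes, and list members beyond the first 6, were chosen after their values were seen. Gene positions are from GENCODE M21 on GRCm38. Fold bounds against a group without UMIs count 3 UMIs over the group. Alternatives were other factors, filters, groups in the fit, cell rules, left-out libraries and the replicate number as a block. The numbers did not pair the libraries (same-number correlations of deviations from the group means were 0.0843, -0.0303 and -0.184 over 12479 genes).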

Additional observations from a re-analysis of the deposited data

Results flagged for a closer look

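The difference between dKO XY and control XY was not the same in epithelial and stromal cells for 1049 genes, by the interaction test of edgeR across libraries (adjusted p under 0.05). The values below are the log2 difference in epithelial cells minus that in stromal cells, 2 libraries per genotype. The mix of members differed between the genotypes, as all control XY members were in cell group 3 and few dKO XY members were, and this enters the values. Among well expressed genes they were highest for *Mt2* (5.58), *Mt1* (5.54), *Cst12* (4.20), *Wnt6* (4.17) and *Adamts19* (3.90). Control XY members had 0 and 6 UMIs of *Mt2* and 0 and 5 of *Cst12*, so among members these genes could only come out higher. They were lowest for *Anxa3* (-3.43), *Slc9a3r1* (-3.12), *Fbln2* (-3.08), *Tagln* (-3.02) and *Fbln5* (-3.00).

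The difference between control XX and control XY was unequal in the 2 cell classes for 1513 genes by the same test. Here the values among well expressed genes were highest for *Cyp11a1* (6.15), *Star* (6.12), *Mt1* (5.64), *Mt2* (5.61) and *Acsbg1* (5.33). That of *Cyp11a1* is not a rise in members, as fewer control XX members (2.20% and 0.971%) than control XY members (75% and 59.4%) had a UMI of it. They were lowest for *Fst* (-6.28), *Sulf1* (-3.86), *Atp1b1* (-3.81), *Ltbp1* (-3.77) and *Plxna4* (-3.52).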

How the results depend on the processing

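Between dKO XY and control XY, control XX and control XY, and dKO XY and control XX, 894, 652 and 145 genes were called. Without a filter on low counts these were 1864, 1612 and 971, and with only the libraries compared in the fit 1689, 323 and 88. Leaving out 1 library at a time gave 58 to 1681, 68 to 1609 and 23 to 800 genes, and for the interactions with stromal cells (1049 and 1513) 382 to 1795 and 666 to 2257. Without the cells of highest doublet score dKO XY and control XX differed in 75 genes. The replicate block gave 787, 626 and 141 genes, and 76 of 81, 48 of 50 and 23 of 24 named genes were still called. DESeq2, other factors, cell rules and gene minimum, and the interaction under its other alternatives, stayed within 1.5 times. The share of epithelial cells was 0.240% in control XY, 1.35% in dKO XY and 1.84% in control XX after thinning, 0.383% and 2.48% in control XY and dKO XY under the looser rule, 0.325% and 1.59% under the stricter rule, and in control XY 0.396% without cells of high doublet score and 0.344% with more than 1500 genes. Apart from fewer libraries, genes or cells, the cause was not tested.

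In cell group 3 alone, an alternative chosen after seeing the data, 7, 73 and 77 genes were called. Directions turned there for *Aqp5* (-0.14), *Bmp2* (-0.074), *Cdh2* (-0.082), *Col18a1* (0.12), *Col3a1* (0.27), *Crip1* (0.073), *Fgf9* (0.49), *Fgfr2* (-0.33), *Igfbp2* (-0.13), *Lhx9* (-0.44), *Mt1* (-1.14), *Nr2f1* (0.17), *Sema3d* (0.22), *Sfrp2* (0.35), *Snai2* (-0.085), *Stmn2* (0.41), *Tgfb2* (0.37), *Tgfb3* (0.23) and *Upk1b* (0.061) in dKO XY against control XY. They turned for *Col3a1* (0.073), *Fst* (-2.34), *Igfbp2* (-0.25), *Itga6* (-0.45), *Krt18* (-0.76) and *Krt8* (-0.19) in control XX against control XY, and for *Khdrbs3* (1.00) and *Sorbs2* (0.27) in dKO XY against control XX. *Fst* in control XX against control XY also turned without control XX replicate 1 (-1.37), and was 0.99 without control XX replicate 2. Without cell group 4, also added after seeing the data, 1001, 671 and 121 genes were called.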
